A study of Mus musculus with 21 samples.

Results

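The 10 genes described here, Wnt3, Wnt11, Egf, Tgfa, Areg, Ereg, Dll1, Dll4, Jag1 and Bst1, encode the Wnt, EGF-type and Notch signals, and a related surface enzyme, by which Paneth cells can supply the intestinal stem cells next to them. They were chosen by name for their role, with no threshold on their values, from the 55414 genes of the count table, and each was matched to a single Ensembl identifier. Of these 10 genes, 7 had enough counts to enter the test across 13070 genes, and Wnt11, Areg and Ereg did not. The question was whether the supply of these signals in Paneth cells differed with the microbiome or with zinc in the drinking water.

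Paneth cells sit at the base of the small intestinal crypts, wedged between the Lgr5-expressing stem cells. Wnt3 is a secreted ligand that stays on membranes and activates β-catenin in the neighbouring cell, whereas Wnt11 is mostly known for signalling that does not need β-catenin. Egf, Tgfa, Areg and Ereg are made as membrane-bound precursors, are released by proteases and activate the receptor EGFR. Dll1, Dll4 and Jag1 are transmembrane ligands that activate Notch receptors on the cell they touch, which keeps stem cells from becoming secretory cells. Bst1 is not a ligand but a surface enzyme that makes cyclic ADP-ribose from NAD, a product that Paneth cells can pass to stem cells.

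Bulk RNA-seq was available for 21 libraries, each from Paneth cells that flow cytometry had sorted out of mouse small intestine. The study describes the mice as C57BL/6J. Drinking water was Milli-Q (purified) water, alone or with zinc sulfate at 200 mM by the labels, over 7 weeks. Both waters were given to specific pathogen free (SPF) mice, to SPF mice that received broad-spectrum antibiotics for the last 3 weeks, and to germ-free mice. No genetic change was named for any group. On Milli-Q water the groups held 3 SPF, 4 antibiotics and 3 germ-free libraries, and on zinc water 3, 4 and 4. The study says of its Paneth cell samples in general that each came from an individual mouse, while the labels of these libraries number replicates only, and no source used here gives the age of the mice. Since the groups serve in several comparisons (SPF on Milli-Q water, for example, in 3 of the 9 comparisons of a pair of groups), the comparisons are not independent of each other.

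Total counts per library ranged from 9888174 to 16896714. The readouts of the conditions followed the labels. Mt1, a metallothionein induced by zinc, averaged 37.1, 44.4 and 99.5 counts per 1e6 counts (CPM) on Milli-Q water in SPF, antibiotics and germ-free libraries and 499.7, 711.9 and 778.2 CPM on zinc water. Reg3g, an antibacterial lectin induced by microbes, averaged 433 CPM in SPF, 18.7 CPM in antibiotics and 56.8 CPM in germ-free libraries on Milli-Q water. The endothelial gate gene Pecam1 did not exceed 0.248 CPM and the leukocyte gate gene Ptprc 2.53 CPM in any library. The scale of the germ-free libraries stood apart. The 28 α-defensin (Defa) genes held 39.3 to 44.5% of counts there, and 24.1 to 36.4% in SPF and antibiotics libraries. The TMM factor, which edgeR computes from the bulk of genes and multiplies the library total by to give the size that counts are divided by, lay at 0.522 to 0.834 in germ-free libraries and at 0.996 to 1.49 in the others. On the TMM scale the median of all tested genes differed by −0.028 to 0.002 (log2) between germ-free and other libraries. With library totals alone this median shifted by −0.99 and −0.61 against SPF on Milli-Q and zinc water and by −1.05 and −0.74 against antibiotics, so that germ-free changes are given here relative to the median gene, with the value by library totals beside those that were called. Germ-free zinc replicate 1 stood apart on the first principal component, at 79.4. SPF zinc replicate 1 held 6228 counts of Xist, where no other library held more than 34. Some results of Wnt3, Egf and Bst1 are therefore also given without these libraries, while correlations, marker levels and pathway lists include them.

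The 10 genes differed widely in level, in an order led by Wnt3. Per kilobase of transcript, Wnt3 was the most abundant, at a mean of 27.1 TMM-scaled CPM per kb over the 21 libraries, above Dll1 in 20 of them. Dll1 followed at 11.04, Dll4 at 7.26, Egf at 2.90, Tgfa at 1.84 and Jag1 at 1.04 CPM per kb. Each of Dll1, Dll4, Egf and Tgfa lay above the next gene in 21 of 21 libraries, so this order did not depend on the group. Bst1 at 0.283, Areg at 0.247, Ereg at 0.0613 and Wnt11 at 0.0107 CPM per kb formed a low end in which neighbours changed places between libraries, since Bst1 exceeded Areg in only 9 of 21. Their totals over all libraries were 224 counts for Bst1, 95 for Areg, 92 for Ereg and 13 for Wnt11, against 22076 for Wnt3. These are levels of bulk RNA, in which fewer cells of a type and less RNA per cell cannot be told apart.

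**Figure D1:**
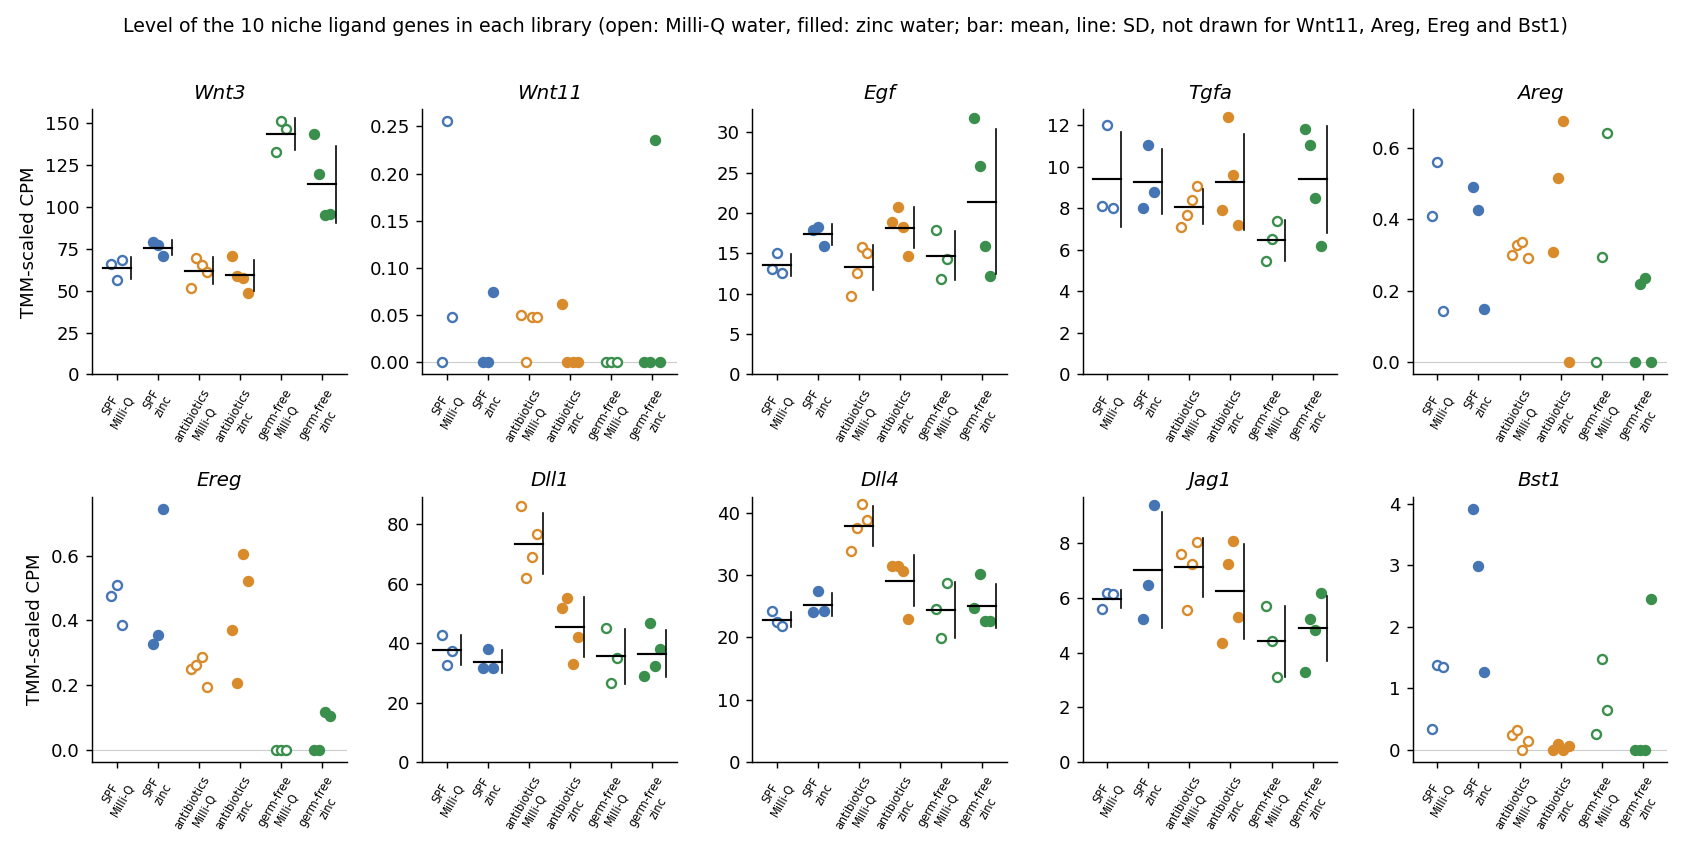
Level of each of the 10 genes in every library, in TMM-scaled CPM on a linear axis from 0, by group (open points, Milli-Q water; filled points, zinc water; bar, mean; line, SD, both left out for the genes with the lowest counts). Wnt3 was highest in the germ-free libraries, at 95.1 to 151.1 CPM, and Dll1 and Dll4 in the antibiotics libraries on Milli-Q water, at 62.1 to 86.3 and 33.8 to 41.5 CPM.

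Fold changes and adjusted p-values are from edgeR's quasi-likelihood test with Benjamini-Hochberg adjustment over the 13070 genes, with a threshold of 0.05, and errors of log2 fold changes are standard errors. In the 4 germ-free comparisons, Wnt3 was the one gene of the list that was higher. Against SPF on Milli-Q water this was 1 of 7 tested members, where 24.2% of all genes tested were called and 12.7% were higher, and on zinc water it was 1 of 7, where 5.85% were called and 3.47% higher. Against antibiotics on Milli-Q water, 1 of 7 was higher and 2 of 7, Dll1 and Dll4, were lower, with 22.2% of all genes called, 12.5% higher and 9.7% lower. On zinc water it was 1 of 7, with 13.2% called and 7.07% higher. With 7 members tested, counts of 1 or 2 read against these shares say nothing of the list as a whole.

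Antibiotics moved fewer genes on Milli-Q water. There Dll1 and Dll4 were higher than in SPF, 2 of 7 members, while 0.199% of all genes were called (26 genes) and 0.0459% were higher (6 genes), so that both ligands were among the 6. On zinc water Bst1 alone was lower after antibiotics, 1 of 7, with 8.97% of all genes called and 4.21% lower. Bst1 had enough counts to be tested mainly through its SPF libraries.

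For zinc, none of the 7 tested members was called in SPF mice, where 0.138% of all genes were called, and none in germ-free mice, where 11.4% were called. That last share rests on single libraries, since leaving out germ-free Milli-Q replicate 2 turned its 1485 genes into 5, and leaving out germ-free zinc replicate 4 gave 3435. The unadjusted p was under 0.05 for 665 genes in the SPF comparison, and DESeq2 and edgeR each called 0 members there. In germ-free mice the unadjusted edgeR p was 0.0304 for Wnt3, 0.0426 for Egf and 0.0433 for Tgfa. A member that was not called is thus not shown to be unchanged. After antibiotics, Dll1 and Dll4 were lower on zinc water, 2 of 7, with 21.7% of all genes called and 11.5% lower. In the average of zinc over the 3 contexts, Egf was higher, 1 of 7, with 21.9% called and 10.7% higher. The difference of the zinc effect between contexts passed for 0 of 7 members in each of the 3 tests. Antibiotics minus SPF called 0% of all genes, germ-free minus SPF 0% and germ-free minus antibiotics 0.207%, while the unadjusted p was under 0.05 for 2418, 1741 and 2140 genes. DESeq2 called 308, 37 and 367 genes in these tests.

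The median log2 change of the 7 tested members was 0.23 for zinc in SPF mice, −0.19 with antibiotics and 0.040 in germ-free mice, against medians of all genes of −0.023, 0.0072 and −0.019. For antibiotics against SPF it was −0.031 on Milli-Q water and 0.0023 on zinc water, with all genes at −0.0074 and −0.0017. For germ-free against SPF it was −0.078 and 0.0013, and for germ-free against antibiotics −0.32 and −0.001, with all genes between −0.028 and 0.002. In these comparisons of a pair of groups the median of the members stayed within 0.32 of no change.

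**Figure D2:**
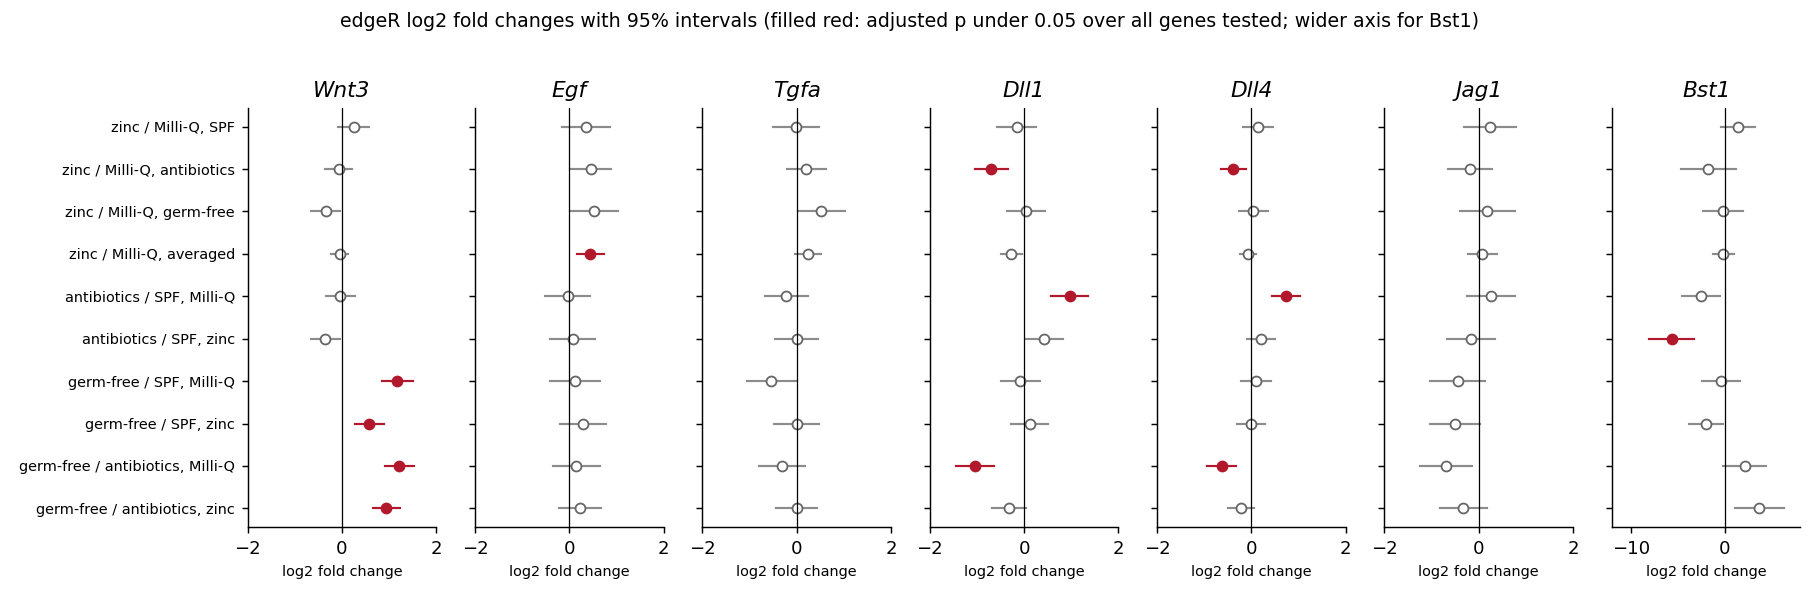
Log2 fold change of the 7 tested genes, with 95% intervals, in the 9 comparisons of a pair of groups and the zinc average, on the TMM scale (red, adjusted p under 0.05; Bst1 on a wider axis). Called values are those of Wnt3 in the 4 germ-free comparisons, of Dll1 and Dll4 in 3 comparisons with antibiotics on Milli-Q water, of Egf in the zinc average and of Bst1 for antibiotics against SPF on zinc water.

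Wnt3, on chromosome 11 (GRCm39, 103664976 to 103708853, plus strand), was the only abundant Wnt ligand of the list. In SPF libraries on Milli-Q water it stood at 66.0, 56.4 and 68.3 TMM-scaled CPM and in antibiotics libraries at 51.5, 69.7, 65.6 and 61.4 CPM. In germ-free libraries on Milli-Q water it stood at 133.1, 151.1 and 146.6 CPM. The germ-free libraries lay wholly above both other groups, which overlapped each other. Germ-free against SPF gave a log2 fold change of 1.18 ± 0.16 (95% interval 0.84 to 1.51) at an adjusted p of 3.53e-05. Against antibiotics it was 1.21 ± 0.15 at 7.46e-06, and both calls held when any 1 library was left out. Antibiotics and SPF on Milli-Q water did not differ in Wnt3 past the threshold, at −0.035 with an adjusted p of 0.965.

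On zinc water, Wnt3 stood at 79.1, 77.3 and 70.9 CPM in SPF, at 71.0, 59.1, 57.8 and 48.9 CPM in antibiotics and at 143.5, 119.9, 95.1 and 95.9 CPM in germ-free libraries. The germ-free libraries again lay wholly above the others but ranged more widely. Germ-free against antibiotics gave 0.94 ± 0.14 at an adjusted p of 0.00019, and 0.81 at 0.000908 without germ-free zinc replicate 1. Germ-free against SPF gave 0.58 ± 0.15 at 0.0256, a call that was lost in 5 of 7 fits that left out 1 library. It stood at 0.45 with an adjusted p of 0.085 without germ-free zinc replicate 1, at 0.0633 without replicate 2, and at 0.0513, 0.124 and 0.13 without SPF zinc replicates 1, 2 and 3.

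The size of the germ-free difference in Wnt3 depended on the scale. By library totals, Wnt3 averaged 79.5 CPM in SPF, 81.7 CPM in antibiotics and 92.7 CPM in germ-free libraries on Milli-Q water, then 82.4, 70.1 and 78.4 CPM on zinc water. Its log2 changes by library totals were 0.22 and −0.071 for germ-free against SPF on Milli-Q and zinc water, which turns the direction on zinc water, and 0.18 and 0.16 against antibiotics, with adjusted p between 0.205 and 0.683. Wnt3 was thus higher relative to the median gene of the same cells, while its share of all counts, Defa transcripts included, was not called different. Under library totals 5, 4, 5 and 6 of the 7 members were called in these 4 comparisons, as the median of all genes moved.

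Ratios between genes of the same library do not depend on the scale. Wnt3 counts per Dll1 count ran from 1.54 to 1.83 in SPF, from 0.597 to 1.12 in antibiotics and from 2.94 to 5.67 in germ-free libraries on Milli-Q water. On zinc water they ran from 2.02 to 2.51, from 1.07 to 1.76 and from 2.53 to 4.97. In both waters the order was the same, antibiotics below SPF below germ-free, with no overlap. Wnt3 per Dll4 gave the same order, with 2.50 to 3.12, 1.52 to 1.86 and 5.11 to 7.62 on Milli-Q water. Set against Paneth cell genes, the groups separated little. For the lysozyme gene Lyz1, Wnt3 counts per 1000 Lyz1 counts ran from 0.513 to 0.944 in SPF, from 0.668 to 0.870 in antibiotics and from 0.659 to 0.815 in germ-free libraries on Milli-Q water, which overlap. Wnt3 counts per 100 counts of the Paneth cell protease gene Mmp7 ran from 1.82 to 2.79 in SPF, from 2.37 to 3.26 in antibiotics and from 2.94 to 3.03 in germ-free libraries on this water. Germ-free lay above SPF here and overlapped antibiotics, and on zinc water, at 1.92 to 2.52, 1.72 to 2.98 and 2.24 to 2.65, all 3 groups overlapped.

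Wnt3 moved with the Paneth cell markers. The summed level of the 7 Paneth markers (Lyz1, Defa24, Mmp7, Itln1, Ang4, Cd24a and Kit) was 203100 to 318300 CPM in SPF, 168400 to 262900 in antibiotics and 624200 to 648800 in germ-free libraries on Milli-Q water on the TMM scale. On this water 6 of 7 of these markers were called higher in germ-free libraries against SPF, with a median log2 change of 1.08, and 6 of 7 against antibiotics, with 1.32. Of all genes, 12.7% and 12.5% were higher there. By library totals the 2 markers with the smallest p moved less. Against SPF, Itln1 stood at 0.68 instead of 1.618 and Defa24 at 0.52 instead of 1.455. Against antibiotics, Itln1 stood at 0.93 instead of 1.955 and Ang4 at 0.63 instead of 1.642. Over the 21 libraries the Pearson r of Wnt3 with the summed Paneth markers was 0.959, and the genes most like Wnt3 were Habp2 at 0.99, Clps at 0.984 and Fzd9 at 0.978, of 9214 genes searched. The summed level of 8 goblet cell markers also went with Wnt3, at an r of 0.799. On Milli-Q water and the TMM scale it was 16350 to 18550 CPM in germ-free and 8047 to 11430 CPM in SPF libraries. In antibiotics libraries it was 10130 to 10810 CPM. Germ-free lay above both on this scale, an order that does not hold by library totals. Against SPF, 2 of 8 markers were called higher and 3 lower. By library totals the 2 higher, Spink4 and Tff3, stood at 0.23 and 0.17, with adjusted p of 0.12 and 0.385. Enteroendocrine markers had an r of −0.718 with Wnt3, with 1 of 8 called higher and 3 lower against SPF. These are descriptions over libraries that share their scale factors. The part of these marker levels in the Wnt3 difference was not tested.

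**Figure D3:**
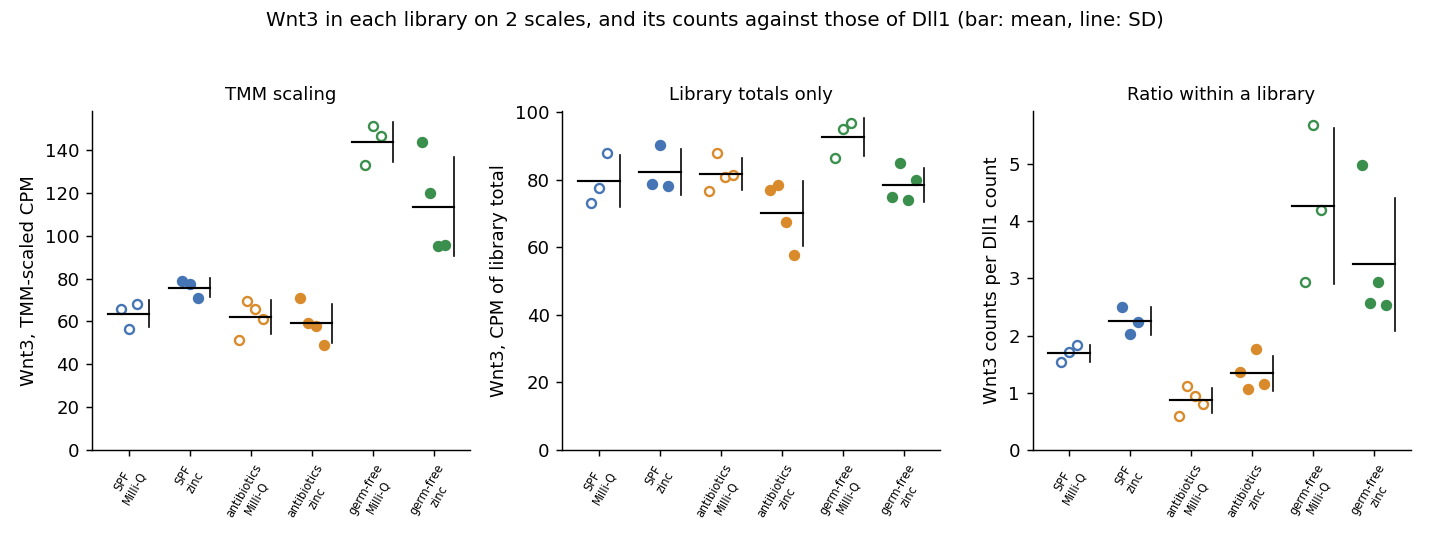
Wnt3 in every library on 3 scales, TMM-scaled CPM, CPM of the library total and Wnt3 counts per Dll1 count, by group (open points, Milli-Q water; filled points, zinc water). Germ-free libraries lie above the others on the TMM scale and in the ratio to Dll1 within each water. By library totals all 21 libraries lie between 57.7 and 96.9 CPM. There germ-free Milli-Q replicates 2 and 3, at 94.9 and 96.9 CPM, are the highest, and the other germ-free libraries lie among the rest.

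Zinc did not change Wnt3 past the threshold in any context. In SPF mice the zinc libraries lay wholly above the Milli-Q libraries, at 0.25 ± 0.16 with an adjusted p of 0.997. After antibiotics the difference was −0.067 (0.759) and in germ-free mice −0.34 ± 0.15 (0.127). The zinc effect in germ-free minus that in SPF mice was −0.59 with an adjusted p of 0.274.

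The 250 bases before the annotated start of Wnt3 lie at chr11:103664726-103664975 (GRCm39, plus strand, GENCODE annotation). They are shown here because Wnt3 was called in the germ-free comparisons. Those of Dll1 and Dll4 are shown with their results because both were called for antibiotics on Milli-Q water and for zinc after antibiotics. Capitals mark matches, on either strand, to the core of the metal response element (TGCACNC or TGCGCNC), to the core bound by the Notch effector RBPJ (TGGGAA) and to the core bound by the Wnt effectors of the TCF family (CTTTGA).
Wnt3: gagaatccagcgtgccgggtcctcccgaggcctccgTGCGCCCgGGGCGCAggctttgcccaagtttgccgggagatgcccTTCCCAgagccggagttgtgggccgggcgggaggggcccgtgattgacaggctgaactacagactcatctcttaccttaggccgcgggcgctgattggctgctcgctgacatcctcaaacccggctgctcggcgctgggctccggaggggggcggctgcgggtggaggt
The sequence was 68.8% G and C. It held 2 matches to the metal response core, at 214 and 206 bases before the start on opposite strands, 1 match to the RBPJ core at 169 bases, and 0 to the TCF core. Of the 21770 promoters of the same length, 19.7% held a metal response core, 23.2% an RBPJ core and 15% a TCF core. The 250 bases before the outermost annotated start held 1 metal response core for Mt1 and 0 for Mt2. Such a window can miss a start that the cells use, so that a match or its lack in these letters is a description only.

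Wnt11, on chromosome 7 (98484319 to 98504402, plus strand), was barely detected. It had 6 counts in SPF libraries on Milli-Q water (0, 5 and 1), 1 on zinc water, 3 and 1 in antibiotics libraries on Milli-Q and zinc water, 0 in the Milli-Q and 2 in the zinc libraries of germ-free mice. The 6 counts against 3 in SPF and antibiotics libraries on Milli-Q water gave a ratio, scaled to library size, of 2.79, with an exact 95% counting interval of 0.596 to 17.2. No difference in Wnt11 was detectable at this depth, and counting intervals cover counting error only.

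Of the other Wnt ligands and secretion genes, 7 of 24 had enough counts to be tested. With zinc after antibiotics 1 of the 7 was lower, where 11.5% of all genes were. No gene of the list was called in any comparison of germ-free or antibiotics with SPF, or of germ-free with antibiotics. These comparisons called 0.199 to 24.2% of all genes. Among Wnt receptors and targets, 25 of 27 were tested, and 3 were higher and 7 lower in germ-free than in SPF libraries on Milli-Q water. In that comparison 24.2% of all genes were called and 12.7% were higher. The Wnt receptor Fzd9 was higher by 1.80 at an adjusted p of 1.36e-06 and by 1.78 against antibiotics, or by 0.86 and 0.75 by library totals. Cd44, a Wnt target and adhesion receptor, was lower by −1.41 at 2.28e-05, or by −2.39 by library totals. Nkd1, a feedback inhibitor of Wnt signalling, was higher by 1.29 and 1.02 in these comparisons, and by library totals these were 0.32 and −0.016, a turn of direction in the second. With zinc after antibiotics 0 genes of this list were higher and 5 of 25 were lower, where 11.5% of all genes were lower, among them the targets Rnf43 by −0.56 (adjusted p = 0.0156) and Ascl2 by −0.69 (0.0201). Zinc in SPF mice and antibiotics on either water called 0 of the 25. Of all genes, zinc in SPF mice called 0.138%, and antibiotics called 0.199% on Milli-Q and 8.97% on zinc water.

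Of the Notch ligands of the list, Dll1 and Dll4 differed between antibiotics and SPF on Milli-Q water, and Jag1 was not called. On zinc water the member called between antibiotics and SPF was Bst1. Dll1 lies on chromosome 17 (15587276 to 15597134, minus strand), where Fam120b overlaps it on the other strand, and Dll4 on chromosome 2 (119156170 to 119166443, plus strand), overlapped by Gm14207. The libraries were made with a stranded kit, and no source used here gives whether counting used strand. The 250 bases before their starts, at chr17:15597135-15597384 (minus strand, printed in the direction of the gene) and chr2:119155920-119156169 (plus strand), are shown with matches to the same cores in capitals.
Dll1: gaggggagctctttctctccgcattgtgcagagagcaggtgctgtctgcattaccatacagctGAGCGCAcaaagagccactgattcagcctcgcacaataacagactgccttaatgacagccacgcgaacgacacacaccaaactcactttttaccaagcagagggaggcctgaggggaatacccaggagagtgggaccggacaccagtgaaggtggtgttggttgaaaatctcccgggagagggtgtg
Dll4: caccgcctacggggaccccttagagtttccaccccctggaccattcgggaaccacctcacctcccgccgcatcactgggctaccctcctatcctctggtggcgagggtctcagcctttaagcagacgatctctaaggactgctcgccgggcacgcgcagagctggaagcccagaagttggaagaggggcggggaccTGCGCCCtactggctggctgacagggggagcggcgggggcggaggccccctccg
Dll1 held 1 metal response core, at 187 bases before the start, and Dll4 held 1, at 54 bases. Neither held a match to the RBPJ or the TCF core in this window. The G and C content was 54.4% for Dll1 and 67.2% for Dll4, and an exon of Gm14207 lies in the window of Dll4.

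Dll1 stood at 42.9, 32.8 and 37.3 CPM in SPF libraries on Milli-Q water and at 86.3, 62.1, 69.0 and 76.8 CPM in antibiotics libraries. It stood at 45.2, 26.6 and 35.0 CPM in germ-free libraries on the same water. Every antibiotics library lay above every SPF and germ-free library, and SPF and germ-free overlapped. Antibiotics against SPF gave a log2 fold change of 0.97 ± 0.19 at an adjusted p of 0.0221. Germ-free against antibiotics gave −1.04 ± 0.19 at 0.000635, which held when any 1 library was left out, and −2.09 by library totals. Germ-free and SPF did not differ past the threshold, at −0.078. The call against SPF was lost without antibiotics replicate 1, 3 or 4 or SPF replicate 2, where the adjusted p reached 0.166, and stood at 1.07 with an adjusted p of 0.0688 by library totals.

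On zinc water, Dll1 stood at 51.8, 55.3, 32.9 and 42.2 CPM in antibiotics libraries, at 31.6, 38.2 and 31.6 CPM in SPF libraries and at 28.9, 46.8, 32.4 and 38.0 CPM in germ-free libraries. All antibiotics libraries on zinc water lay below all of those on Milli-Q water, and they overlapped the other zinc groups. Zinc against Milli-Q water after antibiotics gave a log2 fold change of −0.69 ± 0.17 at an adjusted p of 0.00813, which was at most 0.0277 when any 1 library was left out. Zinc gave −0.16 (adjusted p = 0.997) in SPF and 0.040 (0.92) in germ-free mice. The difference of the zinc effect, antibiotics minus SPF, was −0.54 ± 0.26 at 0.277, and germ-free minus antibiotics 0.73 ± 0.26 at 0.162, so the zinc effect was not shown to differ between contexts. On zinc water, antibiotics against SPF gave 0.43 ± 0.19 at 0.149.

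Dll4 moved like Dll1 at a smaller size. It stood at 24.2, 22.5 and 21.9 CPM in SPF, at 33.8, 37.5, 41.5 and 38.9 CPM in antibiotics and at 24.6, 19.8 and 28.7 CPM in germ-free libraries on Milli-Q water. The antibiotics libraries again lay wholly above both other groups. Antibiotics against SPF gave 0.73 ± 0.14 at an adjusted p of 0.0218, a call lost in 4 of 7 fits that left out 1 library, namely antibiotics replicate 2, 3 or 4 or SPF replicate 2, where the adjusted p reached 0.103. By library totals this difference was 0.80 at 0.0688. Germ-free against antibiotics gave −0.63 ± 0.15 at 0.00365, which held without any 1 library, and −1.66 by library totals.

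With zinc after antibiotics, Dll4 stood at 31.4, 31.5, 30.7 and 22.9 CPM, wholly below the Milli-Q libraries. The log2 fold change was −0.38 ± 0.13 at an adjusted p of 0.0389. This call was lost in 6 of 8 fits without 1 library, where the adjusted p reached 0.136 without antibiotics zinc replicate 4, and stood at 0.0768 with no filter on low counts. In SPF zinc libraries Dll4 stood at 24.1, 27.4 and 24.3 CPM and in germ-free zinc libraries at 24.8, 30.2, 22.7 and 22.6 CPM. These ranges overlap those of SPF and germ-free libraries on Milli-Q water. The zinc effect in antibiotics minus that in SPF mice was −0.52 ± 0.20 at an adjusted p of 0.182.

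Dll1 and Dll4 were alike mainly in how they differed between groups. Over the 21 libraries the gene most like Dll1 was Dll4, at a Pearson r of 0.816, followed by Ttyh3 at 0.808 and Grk6 at 0.78, and within groups the r of both ligands was 0.403. Within groups Dll4 had a higher r with Egf, at 0.617, with Tgfa, at 0.53, and with Wnt3, at 0.475. Dll1 counts per Dll4 count ran from 1.46 to 1.78 in SPF, 1.66 to 2.55 in antibiotics and 1.22 to 1.84 in germ-free libraries on Milli-Q water, which overlap. Relative to Mmp7, whose protease cleaves defensin precursors, Dll1 ran from 1.18 to 1.52 counts per 100 in SPF, from 2.49 to 5.47 in antibiotics and from 0.535 to 0.998 in germ-free libraries. On this scale-free measure the 3 groups did not overlap on Milli-Q water. On zinc water SPF, at 0.768 to 1.25, and germ-free, at 0.451 to 1.04, overlapped, and antibiotics ran from 1.49 to 2.79. On the TMM scale Mmp7 itself was called higher in germ-free libraries on Milli-Q water, by 0.74 against SPF and 1.11 against antibiotics. As a share of library totals, Mmp7 averaged lower in germ-free than in SPF libraries on this water, a turn of direction.

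Markers of dissociation and of other cells are given beside the Dll1 and Dll4 differences. The summed level of 10 immediate-early genes, which respond to tissue dissociation, was 1206 to 1704 CPM in antibiotics and 825 to 1412 CPM in SPF libraries on Milli-Q water, with 0 of 10 called. Goblet cell markers, of another secretory cell, summed to 10130 to 10810 CPM after antibiotics and 8047 to 11430 CPM in SPF, with 1 of 8 called higher. In this comparison 0.199% of all genes were called and 0.0459% were higher. Both ranges overlap. In germ-free libraries the immediate-early genes summed to 660 to 981 CPM, wholly below antibiotics, with 6 of 10 called lower and none higher. Against antibiotics, 5 of 8 enteroendocrine markers were called lower and 1 higher, and 3 of 6 tuft cell markers lower. Of all genes, 22.2% were called there and 9.7% were lower. The tuft markers summed to 133.8 to 139.4 CPM in germ-free and 223.8 to 358.7 CPM in antibiotics libraries, with no overlap. With zinc after antibiotics, 1 of 10 immediate-early genes was called lower, where 11.5% of all genes were. Over the 21 libraries the Pearson r with the immediate-early sum was 0.544 for Dll1 and 0.582 for Dll4, for each the highest of the marker lists. The lowest was with enterocyte markers, at −0.574 and −0.548. The part of these markers in the Dll1 and Dll4 differences was not tested.

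Jag1, on chromosome 2 (136923373 to 136958693, minus strand), was called in no comparison. It stood at 5.59, 6.18 and 6.14 CPM in SPF, at 7.61, 5.58, 7.25 and 8.03 CPM in antibiotics and at 5.70, 4.44 and 3.11 CPM in germ-free libraries on Milli-Q water. The germ-free range overlaps those of antibiotics and SPF by its highest library alone. Germ-free against antibiotics gave −0.70 ± 0.27 at an adjusted p of 0.0627, which passed the threshold with DESeq2 (0.037), with no filter on low counts (0.0427) and with only these groups in the fit (0.0487), and by library totals at −1.74 (7.13e-05). On zinc water Jag1 stood at 5.22, 6.47 and 9.38 CPM in SPF, at 4.34, 7.25, 8.09 and 5.29 CPM in antibiotics and at 3.29, 5.25, 4.84 and 6.17 CPM in germ-free libraries, all of which overlap.

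Of the other Notch ligands and genes that handle ligands, 6 of 8 were tested. Dll3, a divergent Delta family member that does not activate Notch from the neighbouring cell, was higher in germ-free libraries by 1.40 (adjusted p = 0.000102) against SPF and 1.04 against antibiotics on Milli-Q water. By library totals these were 0.44 (0.0704) and 0.015. Mib2, an E3 ubiquitin ligase for Notch ligands, was lower with zinc after antibiotics by −0.94 at an adjusted p of 0.00242 and in germ-free mice by −0.83 at 0.0185, the latter at −0.66 and 0.138 by library totals. The germ-free zinc comparison called 5 genes instead of 1485 without germ-free Milli-Q replicate 2. Among Notch receptors and targets, 16 of 21 were tested, and 2 were higher and 6 lower in germ-free than in antibiotics libraries on Milli-Q water, where 12.5% of all genes were higher and 9.7% lower. Nrarp, a target and feedback inhibitor of Notch, was lower by −1.22 at 0.000222 and the receptor Notch1 by −0.73 at 0.0042, or by −2.27 and −1.77 by library totals. Nrarp was also lower in germ-free than in SPF libraries on Milli-Q water, by −0.75 at 0.0136, or by −1.71 by library totals. Hes6, a basic helix-loop-helix gene, was higher there by 0.80 and against antibiotics by 0.52, and by library totals these turned to −0.17 and −0.53. With zinc after antibiotics 3 of the 16 were lower, beside 11.5% of all genes, among them Notch1 by −0.53 (0.0179) and the fringe gene Rfng by −0.86 (0.0152). Antibiotics on Milli-Q water called 0 of the 16, where 0.199% of all genes were called. At that share 0 of 16 says nothing of the list.

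Egf, on chromosome 3 (129470410 to 129549093, minus strand), was the one member higher with zinc when the contexts were averaged. On Milli-Q water it stood at 13.01, 15.1 and 12.6 CPM in SPF, at 9.72, 12.5, 15.8 and 15.1 CPM in antibiotics and at 17.9, 11.8 and 14.4 CPM in germ-free libraries. On zinc water it stood at 17.9, 18.3 and 15.9 CPM in SPF, at 18.9, 20.8, 18.3 and 14.7 CPM in antibiotics and at 31.8, 25.8, 15.9 and 12.2 CPM in germ-free libraries. The zinc libraries lay wholly above the Milli-Q libraries in SPF mice and overlapped them in the other contexts. The average zinc effect was 0.44 ± 0.14 at an adjusted p of 0.023.

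This average held in 20 of 21 fits that left out 1 library, and was 0.0574 in adjusted p without germ-free Milli-Q replicate 2. By library totals it was 0.35 at 0.0729. Within contexts zinc gave 0.35 ± 0.25 (0.997) in SPF, 0.45 ± 0.21 (0.125) after antibiotics and 0.52 ± 0.24 (0.157) in germ-free mice, so that the direction was shared and no context passed. The germ-free value rested on 1 library each way, at 0.29 (0.459) without zinc replicate 1 and 0.72 (0.0178) without zinc replicate 4. No comparison of microbiome contexts called Egf.

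Tgfa, on chromosome 6 (86172041 to 86252728, plus strand), was called in no comparison. It stood at 8.11, 12.0 and 8.03 CPM in SPF, at 7.11, 7.67, 8.40 and 9.05 CPM in antibiotics and at 5.44, 6.51 and 7.39 CPM in germ-free libraries on Milli-Q water. On zinc water the means were 9.27 ± 1.57 (SD, n = 3), 9.27 ± 2.31 (n = 4) and 9.38 ± 2.57 CPM (n = 4). Germ-free libraries on Milli-Q water lay wholly below the SPF libraries, at −0.54 ± 0.25 with an adjusted p of 0.118, and by library totals at −1.51 with 6.59e-05. Zinc in germ-free mice gave 0.52 ± 0.24 at 0.159, and its average over contexts 0.24 at 0.201. Over the 21 libraries Egf and Tgfa had a Pearson r of 0.615, and Egf counts per Tgfa count ran from 1.26 to 3.29.

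Areg, on chromosome 5 (91287451 to 91296291, plus strand), and Ereg, at 91222157 to 91241505 on the same chromosome and strand, were too low to enter the test. Areg had 6, 11 and 3 counts in SPF, 6, 5, 7 and 6 in antibiotics and 0, 2 and 6 in germ-free libraries on Milli-Q water. On zinc water it had 6, 6 and 2 counts, 5, 10, 10 and 0 counts, and 0, 2, 2 and 0 counts. Counts at this depth overlap between all contexts. Ereg had 7, 10 and 8 counts in SPF, 5, 4, 6 and 4 in antibiotics and 0, 0 and 0 in germ-free libraries with Milli-Q water. On zinc water it had 4, 5 and 10 counts in SPF, 6, 4, 9 and 8 in antibiotics, and 0, 0, 1 and 1 in germ-free libraries. In every SPF and antibiotics library Ereg had at least 4 counts, and in no germ-free library more than 1.

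Set against a floor of 3 counts over the germ-free group on Milli-Q water, Ereg was at least 3.61-fold higher in SPF and at least 1.97-fold higher in antibiotics libraries, scaled by TMM. On zinc water the ratios to the 2 germ-free counts were 7.69 for SPF, with an exact 95% counting interval of 1.86 to 68.1, and 6.61 for antibiotics, with 1.66 to 57.4. With no filter on low counts, edgeR's quasi-likelihood test with Benjamini-Hochberg adjustment gave Ereg an adjusted p of 0.0172 for germ-free against SPF and 0.0726 against antibiotics on Milli-Q water, and 0.176 and 0.141 on zinc water. Ereg thus passed in 1 of these 4 comparisons.

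**Figure D4:**
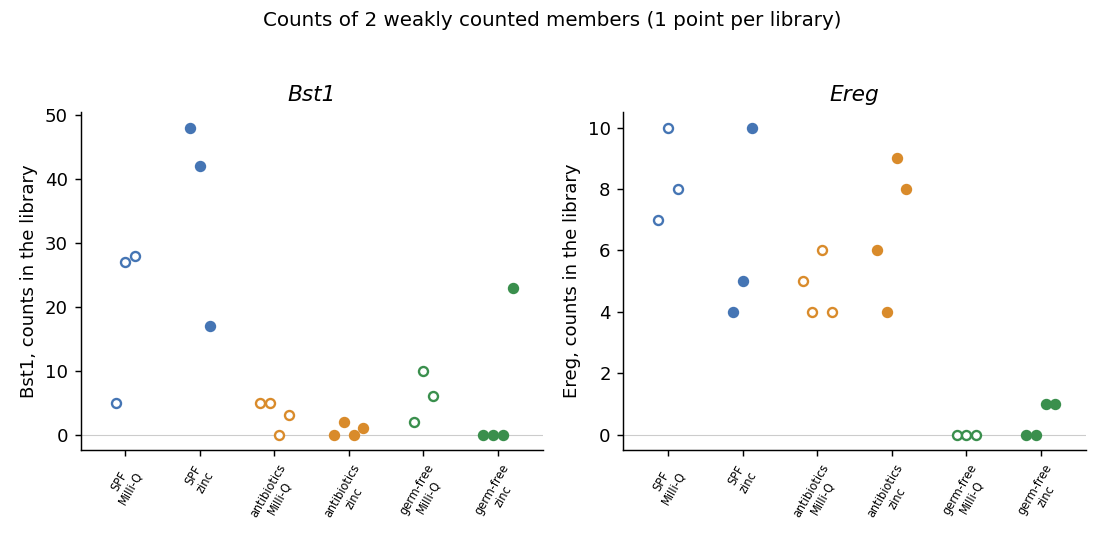
Counts of Bst1 and Ereg in every library, unscaled, by group (open points, Milli-Q water; filled points, zinc water). Ereg had 0 or 1 counts in the 7 germ-free libraries and at least 4 in the 14 others, and Bst1 had 17 to 48 counts in the SPF zinc libraries and at most 2 in the antibiotics zinc libraries.

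Of the other EGF-type ligands and the genes that release them, 8 of 12 were tested. Zinc after antibiotics called 1 higher and 2 lower, where 21.7% of all genes were called and 11.5% lower. The lower genes were Rhbdf1, by −1.24 at an adjusted p of 0.00226, and Rhbdf2, by −0.79 at 0.00174, inactive rhomboids that bring the protease ADAM17 to the surface. Adam10, a sheddase of EGF-type and Notch ligands, was higher by 0.50 at 0.0225, and stood at 0.35 and 0.196 by library totals. In germ-free mice Adam10 was higher with zinc by 0.62 at 0.0274. Calls of that comparison rest on single libraries, with 5 genes instead of 1485 called without germ-free Milli-Q replicate 2. In germ-free against SPF libraries on Milli-Q water, where 24.2% of all genes were called, 3 of the 8 were lower and 0 higher, among them Adam17, which releases Tgfa and Areg, by −0.78, or by −1.74 by library totals. Among ERBB receptors and feedback genes, 10 of 12 were tested, and 3 were lower in that comparison, among them the feedback inhibitor Lrig1 by −0.57 at 0.00121 and Etv5, a target of the pathway, by −2.11, or by −1.52 and −3.17 by library totals. With zinc after antibiotics the receptor genes Erbb2 and Erbb3 were lower, by −0.45 (0.0222) and −0.50 (0.0195). Antibiotics on Milli-Q water and zinc in SPF mice called 0 genes of both lists, where 0.199% and 0.138% of all genes were called.

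Bst1, on chromosome 5 (43976227 to 44001328, plus strand), is overlapped by Fbxl5 on the other strand. It had 5, 27 and 28 counts in SPF and 5, 5, 0 and 3 counts in antibiotics libraries on Milli-Q water, with 2, 10 and 6 counts in germ-free libraries. On zinc water it had 48, 42 and 17 counts in SPF, 0, 2, 0 and 1 in antibiotics and 0, 0, 0 and 23 in germ-free libraries. SPF and antibiotics libraries did not overlap on zinc water and touched on Milli-Q water, and 1 germ-free zinc library held all counts of its group.

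Antibiotics against SPF on zinc water compared 107 with 3 counts, a ratio of 59.0 with an exact 95% counting interval of 19.6 to 290. The fitted log2 fold change was −5.66 ± 1.14 at an adjusted p of 0.00532, which held without any 1 library at 0.00999 to 0.0291, and was −5.31 at 0.0266 without SPF zinc replicate 1. Bst1 passed the filter on low counts mainly through SPF libraries, where it is high. Its adjusted p and the fits without 1 library are therefore no independent support for this difference. On Milli-Q water it was −2.53 ± 0.97 at 0.463, and 0.0136 with no filter on low counts. Germ-free against antibiotics on zinc water gave 3.65 ± 1.27 at 0.0579, or 3.03 at 0.0428 by library totals, and turned to −2.61 without germ-free zinc replicate 4. Germ-free against SPF on zinc water gave −2.01 at 0.174, or −2.50 at 0.0282 by library totals, and −8.27 at 0.00218 without that library, a fitted value against libraries at 0 that depends on the prior count.

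Enterocyte markers moved beside Bst1. The summed level of 8 enterocyte markers was 867 to 1540 CPM in SPF and 372 to 519 CPM in antibiotics libraries on zinc water, with 6 of 8 called lower after antibiotics and none higher. Of all genes, 8.97% were called there and 4.21% were lower. On Milli-Q water the sums were 323 to 633 and 349 to 397 CPM, with 0 of 8 called, where 0.199% of all genes were. Over the 21 libraries the Pearson r of Bst1 with this sum was 0.74, and the part of the enterocyte markers in the Bst1 difference was not tested. Of the genes around cyclic ADP-ribose and NAD, 4 of 6 were tested. Nampt, which makes a precursor of NAD, was higher with zinc after antibiotics by 0.76 at an adjusted p of 0.00397 and in germ-free mice by 0.85 at 0.013, and Ldha, a lactate dehydrogenase that uses NAD, after antibiotics by 0.59 at 0.00331, or by 0.42 at 0.115 by library totals. For zinc in germ-free mice, 5 genes instead of 1485 were called without germ-free Milli-Q replicate 2.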

How the data were processed

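Paneth cells were sorted from the small intestine, and RNA from a column kit was made into stranded mRNA libraries. The authors deposited raw counts per Ensembl gene for 21 libraries, with no normalisation. The submitters' processing notes name FastQC 0.12.0, STAR 2.7.0a, DESeq2 and the build mm39. The counting tool and its use of strand were not given in the sources used here. Groups came from the labels, and column names gave the sample of each column, with 0 columns unmatched.

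Of 55414 identifiers, 54749 matched the GENCODE M39 annotation of GRCm39. All 21 libraries entered a fit in edgeR 4.0.16 (limma 3.58.1, R 4.3.3) with 1 coefficient per group for 6 groups and TMM scaling. filterByExpr kept 13070 genes, and 13 comparisons were tested by quasi-likelihood F-tests with Benjamini-Hochberg adjustment at 0.05. The common dispersion was 0.0369. CPM values are TMM-scaled unless library totals are named. The main test was edgeR, where the study names DESeq2 for its tests. The scripts were tested on simulated data.

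All 10 members are named whatever their values. From the lists of pathway genes, up to 2 called genes per direction and comparison may be named, those with the smallest p among genes averaging 5 CPM or more, and for each member with such a mean the 3 genes most like it. The members and lists were chosen with earlier results of these data known. Results were recomputed with size factors of the DESeq2 type, with library totals, without the filter on low counts, with DESeq2 1.42.0, with a fit of the compared groups alone, with a block for the replicate number, and without each library in turn. All pairs of replicates differed by more than sampling noise (lowest chi-square per gene 8.05). Promoters are the 250 bases before the outermost annotated start. Plots used matplotlib 3.10.9 under Python 3.11.15.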

Additional observations from a re-analysis of the deposited data

Results flagged for a closer look

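In 5 of the 30 sets of 4 libraries (10 genes in 3 groups of 4), a library lay farther from the others than Dixon's 95% critical value for 4 allows. Chance gives about 1 in 20 for normally distributed values, which low counts are not. For Wnt11 this was antibiotics Milli-Q replicate 2 at 0 CPM, with the others at 0.0480 to 0.0501 CPM. It was also antibiotics zinc replicate 1 at 0.0619 CPM and germ-free zinc replicate 3 at 0.236 CPM, with the others of each group at 0. These Wnt11 values rest on 1 or 2 counts, and a lone library with counts among libraries at 0 is always flagged. The number of flags therefore cannot be read against the chance rate. Dll4 in antibiotics zinc replicate 4 stood at 22.9 CPM, with the others at 30.7 to 31.5 CPM. Bst1 in germ-free zinc replicate 4 stood at 2.44 CPM, or 23 counts, with the others at 0.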

How the results depend on the processing

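Of 77 recomputed counts of called members, 60 stayed within 1.5 times the value reported. By library totals the counts were 0 for the zinc average, 0 for antibiotics against SPF on Milli-Q water, 5 and 4 for germ-free against SPF on Milli-Q and zinc water, and 5 and 6 for germ-free against antibiotics. With no filter on low counts they were 1 for zinc after antibiotics, 1 for zinc in germ-free mice, 2 for the zinc average, 2 and 2 for germ-free against SPF on Milli-Q and zinc water, 2 for germ-free against antibiotics on zinc water, where DESeq2 also gave 2, and 1 for the zinc effect in germ-free minus antibiotics. With the replicate number as a block they were 1 for antibiotics against SPF on Milli-Q water, where Dll1 stood at an adjusted p of 0.0672 and Dll4 at 0.0368, and 2 for germ-free against SPF on zinc water. With only the groups compared in the fit, the last count was 0. The cause of these moves was not tested.

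Same-numbered libraries showed little shared deviation, with 7 of 48 pairs at a correlation over 0.1, a median of 0.017 and a highest value of 0.229. Replicate numbers follow the sample titles, and germ-free Milli-Q replicates 2 and 3 are numbered 3 and 4 in the count columns. This check therefore does not show whether some libraries share a batch. Leaving out 1 library gave counts of 0 to 0 members for zinc in SPF mice, 1 to 2 after antibiotics, 0 to 3 in germ-free mice and 1 to 2 on average. It gave 0 to 2 and 1 to 1 for antibiotics against SPF on Milli-Q and zinc water, 1 to 1 and 0 to 2 for germ-free against SPF, and 3 to 4 and 1 to 2 for germ-free against antibiotics. For the differences of the zinc effect it gave 0 to 0 (antibiotics minus SPF), 0 to 1 (germ-free minus SPF) and 0 to 0 (germ-free minus antibiotics). Direction turned for Wnt3 in germ-free against SPF on zinc water by library totals, at −0.071, and for Bst1 in germ-free against antibiotics on zinc water without germ-free zinc replicate 4, at −2.61, in a range of −2.61 to 4.44 over the libraries left out.

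Over all genes, library totals called 9338 and 6310 genes for germ-free against SPF on Milli-Q and zinc water and 10340 and 8649 for germ-free against antibiotics, nearly all lower, against 3169, 764, 2904 and 1720. They called 1445 for zinc after antibiotics, 734 for zinc in germ-free mice, 1286 for the zinc average and 606 for antibiotics against SPF on zinc water, against 2838, 1485, 2860 and 1172. With no filter, 269 genes were called for zinc in SPF mice and 406 for antibiotics against SPF on Milli-Q water, against 18 and 26, and DESeq2 called 38 and 48. For the differences of the zinc effect, no filter called 675, 429 and 323 genes. With only the groups compared, 3 genes were called for zinc in germ-free mice, 14 for germ-free against SPF and 865 for germ-free against antibiotics on zinc water, and 2017 for antibiotics against SPF on zinc water. Leaving out 1 library gave 51 (without SPF zinc replicate 2) to 1573 (without germ-free zinc replicate 4) genes for germ-free against SPF on zinc water, 272 (without SPF zinc replicate 2) to 1059 for antibiotics against SPF on zinc water and 10 to 83 on Milli-Q water, and 5 to 37 for zinc in SPF mice. It gave 1317 (without antibiotics Milli-Q replicate 2) to 2680 for zinc after antibiotics, 5 to 3435 for zinc in germ-free mice and 1946 to 4159 for the zinc average. Germ-free on Milli-Q water called 1661 to 3253 genes against SPF and 1566 to 2770 against antibiotics, both lowest without germ-free Milli-Q replicate 2. The depth limits Wnt11, Areg, Ereg and Bst1, with 13 to 224 counts in all libraries together.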
